A study of Homo sapiens with 47 samples.

Results

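The long arm of human chromosome 14 holds 613 protein-coding genes of the deposited RNA-seq count table, and 599 of them are described here, out of 58395 genes in the table, 19773 of them protein-coding. The chromosome was chosen from the fold changes between the same libraries, since many of its genes had been seen to be lower in the EAF1-mutant cells. Its shift is therefore a description, given with no test over the list. The rule left out 14 genes, namely SNAPC1, PAPOLA, GEMIN2, SUPT16H, CCNK, DLK1, FOS, CPSF2, MED6 and 5 genes by symbol (RPL10L, RPS29, RPL36AL, RPS6KL1 and RPS6KA5). The question asked of the remaining genes was whether those with lower RNA lie in a single stretch of the arm or are spread along it.

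The study asked how EAF1, a subunit of the elongation complexes that Mediator contacts through its subunit MED26, acts on transcription. Ribosomal RNA-depleted total RNA was sequenced from wild-type HEK293T cells, an embryonic kidney line that carries the SV40 large T antigen, and from an EAF1-mutant line derived from them. In the mutant line, amino acids of the MED26-binding site of EAF1 had been replaced by alanines in both alleles by CRISPR-mediated knock-in. The mutant line is 1 clone, so the mutation and any other difference between that clone and the parental cells cannot be told apart. Each group had 3 libraries. Library totals were 59137210, 52541541 and 55637032 counts in wild type, and 57198018, 53369621 and 66611451 in the mutant. The methods speak in general of biological replicates, but the labels do not say that these libraries came from separate cultures, so their p-values may measure technical spread. In such bulk samples, fewer cells of a type and less RNA per cell cannot be told apart.

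Levels are given in CPM, the counts of a gene relative to the library total after scaling with TMM factors. VIM stood at 374, 376 and 391 CPM in the wild-type libraries and at 197, 197 and 204 CPM in the EAF1-mutant ones. KRT8 stood at 23.4, 21.2 and 24.0 CPM in wild type and at 58.3, 59.9 and 60.1 CPM in the mutant. CDH2 averaged 110 CPM (SD 0.654, n = 3) in wild type and 99.5 CPM (SD 2.59, n = 3) in the mutant. These markers of the HEK293T line were thus present in both groups, VIM lower and KRT8 higher in the mutant past the threshold given below, whereas PAX2, with a mean of 0.679 CPM in wild type and 0.871 CPM in the mutant, was near the detection limit. Of 12 markers of leukocytes, hepatocytes, fibroblasts and erythroid cells, 11 were below 1 CPM in every library, with 0.652 CPM as the highest value. CD3E of T cells and HBB of erythroid cells had at most 0.0177 CPM. The most abundant of the 12, COL1A1, averaged 2.85 CPM in wild type and 4.16 CPM in the mutant and was higher past that threshold. Summed over the 12 markers, the level was 3.31, 3.64 and 4.45 CPM in the wild-type libraries and 4.92, 5.23 and 5.57 CPM in the mutant ones, and whether it bears on the differences below was not tested. EAF1 itself, on chromosome 3, stood at 57.5, 58.4 and 56.5 CPM in wild type and at 19.7, 17.9 and 18.8 CPM in the mutant. A point mutation need not alter the RNA level, so EAF1 RNA does not check the labels.

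Chromosome 14 is acrocentric: its short arm carries ribosomal RNA genes and satellite repeats, and its protein-coding genes lie on the long arm. Near the centromere lie clusters of olfactory receptor and ribonuclease A genes and the T cell receptor alpha locus, followed by the cardiac myosin genes. Farther out lie genes for proteasome subunits, homeobox factors and HIF1A, and toward the telomere the serpin cluster, the imprinted DLK1 to DIO3 locus and the immunoglobulin heavy chain locus.

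The sequences shown here come from promoters on either side of the position at which the fold changes shift, called the step and described below, and from a head-to-head gene pair on each side. They were chosen after the values were seen. For each side they are the nearest tested members with a mean of at least 10 CPM whose 250 bases before the start held no annotated exon, and the pair with the highest summed CPM among those with at least 50 bases and no exon between the partners. The first 4 sequences are the 250 bases before the start in the RefSeq table of GRCh38.p14. The SIX4 sequence is at chr14:60724352-60724601 on the minus strand, in intergenic sequence. That of PSMA3 is at chr14:58244593-58244842 on the plus strand, within an intron of ARMH4. That of PRKCH is at chr14:61321329-61321578 on the plus strand, intronic to longer annotated PRKCH and PRKCH-AS1 transcripts. That of HIF1A is at chr14:61695263-61695512 on the plus strand, intronic to HIF1A-AS1. The last pair are the bases between the GENCODE v44 start sites of head-to-head genes, read on the plus strand of GRCh38, at chr14:55027106-55027229 for WDHD1 and SOCS4 and at chr14:94081203-94081300 for DDX24 and IFI27L1. Capitals mark, on either strand, the TATA box core (TATAAA), the inverted or direct CAAT box (written CCAAT) and the GC box of the Sp family (written GGGCGG).
SIX4: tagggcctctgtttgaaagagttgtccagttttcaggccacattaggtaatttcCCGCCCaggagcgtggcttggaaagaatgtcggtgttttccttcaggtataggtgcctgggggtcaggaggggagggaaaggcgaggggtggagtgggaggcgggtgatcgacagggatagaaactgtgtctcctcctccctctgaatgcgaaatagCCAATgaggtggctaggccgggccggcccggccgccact
PSMA3: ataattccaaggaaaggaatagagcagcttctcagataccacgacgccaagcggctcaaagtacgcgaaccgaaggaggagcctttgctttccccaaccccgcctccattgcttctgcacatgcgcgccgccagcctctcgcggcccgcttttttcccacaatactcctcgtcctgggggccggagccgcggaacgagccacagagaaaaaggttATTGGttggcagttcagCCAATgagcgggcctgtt
PRKCH: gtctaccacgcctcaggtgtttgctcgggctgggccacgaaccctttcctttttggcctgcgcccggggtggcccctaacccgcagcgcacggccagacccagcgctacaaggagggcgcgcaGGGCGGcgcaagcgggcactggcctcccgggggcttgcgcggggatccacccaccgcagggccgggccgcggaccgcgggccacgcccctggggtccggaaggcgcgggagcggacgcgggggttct
HIF1A: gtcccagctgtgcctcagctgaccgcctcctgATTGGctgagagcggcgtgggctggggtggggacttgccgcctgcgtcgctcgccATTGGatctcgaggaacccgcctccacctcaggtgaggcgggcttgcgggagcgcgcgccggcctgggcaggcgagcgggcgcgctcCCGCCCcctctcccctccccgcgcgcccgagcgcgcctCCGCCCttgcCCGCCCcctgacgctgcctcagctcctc
WDHD1 and SOCS4: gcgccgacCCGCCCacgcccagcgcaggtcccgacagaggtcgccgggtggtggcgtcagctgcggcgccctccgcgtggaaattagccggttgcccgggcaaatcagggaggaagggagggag
DDX24 and IFI27L1: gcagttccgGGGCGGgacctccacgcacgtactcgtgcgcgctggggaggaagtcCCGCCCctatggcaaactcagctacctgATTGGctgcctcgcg

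Each of the 6 sequences held CCAAT or GGGCGG, and none held TATAAA. CpG dinucleotides numbered 11 in the SIX4 sequence, 19 in that of PSMA3, 30 in that of PRKCH and 29 in that of HIF1A. Genes with such sequences lay on both sides of the step, as the values below show: SIX4 and PSMA3 before it, PRKCH and HIF1A after it. A match is a description of the letters and not a site of binding.

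Of the 599 members, 490 passed the filter on low counts and were tested in the fit over all 28025 genes that passed it. The other 109 reached at most 0.318 CPM in any library, and 28 of them had no count at all. Among the tested members, 135 (27.6%) were lower in EAF1-mutant than in wild-type cells by the threshold used throughout. It asked for a Benjamini-Hochberg adjusted p under 0.01 in edgeR's quasi-likelihood test together with a fold limit, a log2 change beyond 0.5 either way. The same share was 9.36% of all tested genes and 10.6% of the tested protein-coding genes of the other autosomes and X. Higher by the same rule were 41 members (8.37%), against 11.0% of all tested genes and 12.5% of the other protein-coding genes. The log2 fold changes ran from -2.98 for ABHD12B to 5.00 for RGS6, which had at most 0.0594 CPM in wild type, with a median of -0.16 (quartiles -0.53 and 0.14), and 302 were below 0. With 1 library left out in turn, 118 of the lower and 34 of the higher members passed the threshold in each of the 6 fits. Over the 14924 protein-coding genes of the other autosomes and X, the median was 0.01 (quartiles -0.24 and 0.27). Scaled by library totals alone, the median of all tested genes was 0.13 rather than 0.01, the median log2 fold change of tested chromosome 14 members was -0.04 rather than -0.16, and 82 members were lower and 55 higher. The lower ones then made up 59.9% of the members called, against 76.7% with TMM factors, and 30.6% against 46.1% over all tested genes.

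The lower genes were not spread evenly along the arm. Most of them lay on the centromere side of a position between SLC38A6 and PRKCH, among other genes that did not pass the threshold. To place this step, the 490 tested members were taken in order along the chromosome and split where the summed absolute deviations from the medians of both stretches were smallest. The best split lay between SLC38A6 (ENSG00000139974, chr14:60981114-61114316) and PRKCH (ENSG00000027075, chr14:61187559-61550976), 73.2 kb apart in GENCODE v44, and lowered the summed deviation by 31.2%. Taken singly against the wild-type mean, each of the 3 EAF1-mutant libraries gave the same split. Each wild-type library against the mean of the other 2 gave a best split that lowered the deviation by 1.85%, 3.12% and 1.27%. The stretches were set after the values were seen, so they are described and not tested.

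Before the step lay 231 tested members, in a stretch of 42.6 Mb counted from the first member, which was not tested. Their median log2 fold change was -0.55 (quartiles -0.69 and -0.39), which corresponds to 68.4% of the wild-type level. Of these 231 members, 211 were below 0, 187 of them with an adjusted p under 0.01. The same held for 4277 of the 14924 protein-coding genes of the other autosomes and X. With the fold limit, which lies near the median of the stretch, 131 (56.7%) were lower past the threshold and 5 were higher. After the step, over 44.3 Mb, 259 tested members had a median of 0.10 (quartiles -0.07 and 0.30), with 91 below 0, 4 lower and 36 higher. The medians differed by -0.65. With library totals alone they were -0.43 and 0.22, with 81 lower before the step and 1 after it, and their difference is not altered by a scaling that moves all genes alike. All 3 EAF1-mutant libraries lay below all 3 wild-type libraries in 195 members before the step and in 54 after it, and in 34.8% of the protein-coding genes of the other autosomes and X. Within 0.25 of their own median lay 69.7% of the members before the step, 59.8% of those after it and 49.1% of the protein-coding genes of the other autosomes and X. These shares were 82.5%, 73.9% and 58.9% at a mean of 10 CPM or more, 42.6%, 40% and 37.2% at 1 to 10 CPM, and 29.4%, 29.2% and 23.1% below 1 CPM. The plot of fold changes along the arm shows the gene values and the window medians on both sides.

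**Figure D1:**
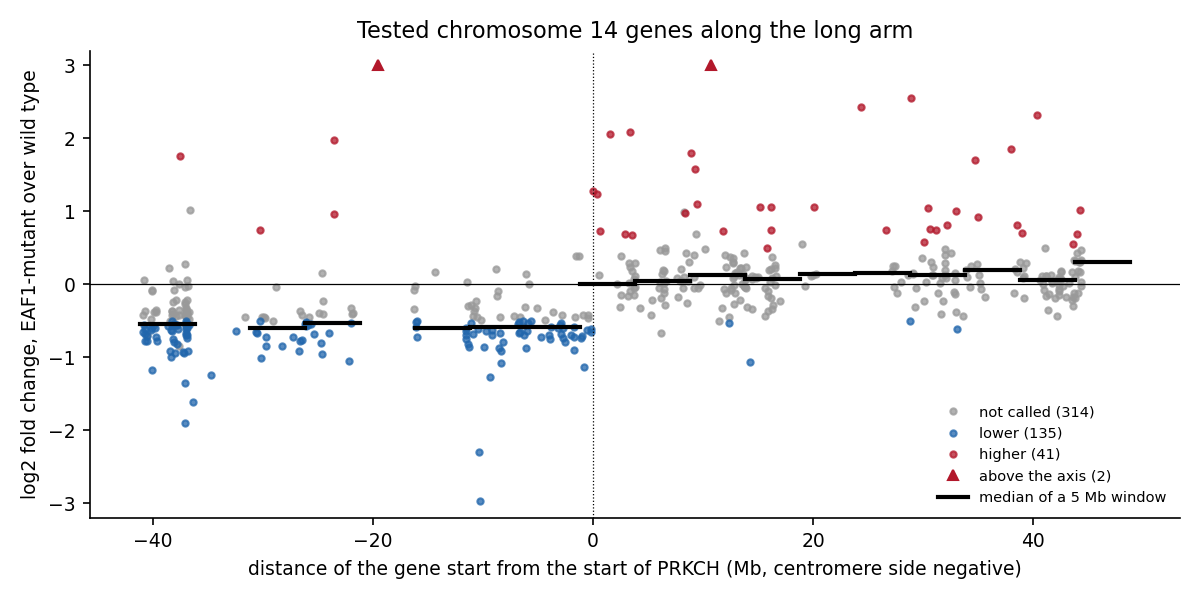
Each point is a tested chromosome 14 gene at the distance of its lowest coordinate from that of PRKCH (x axis, Mb) and its log2 fold change, EAF1-mutant over wild type (y axis). Blue points are the 135 lower genes, red the 41 higher ones, grey the rest and triangles 2 genes above the axis, and the bars, medians of 5 Mb windows, lie near -0.55 left of PRKCH and near or above 0 to its right.

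The median was below 0 before the step and above 0 after it at each level of expression. Among members with a mean of at least 10 CPM, the median was -0.56 over 160 genes before the step, where 156 were below 0, 107 lower and 1 higher. Over 180 such genes after the step it was 0.07, with 71 below 0, 2 lower and 7 higher, and over such genes of the other autosomes and X it was -0.04. With a mean of 1 to 10 CPM, the medians were -0.40 over 54 genes and 0.22 over 55, against 0.15 over such genes of the other autosomes and X. Below 1 CPM they were -0.55 over 17 genes and 0.75 over 24, against 0.37 over all such protein-coding genes of the other autosomes and X. A gene with so few counts can pass the filter through the group in which it is high. Members on the plus and minus strands before the step had medians of -0.55 and -0.53. Of the tested members, 309 share exon sequence with another annotated gene, and since the strand setting of the counting is not stated, their reads may be partly those of the neighbour. Without these, the medians were -0.56 over 78 genes before the step and 0.07 over 103 after it. The histograms of both stretches show their widths.

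**Figure D2:**
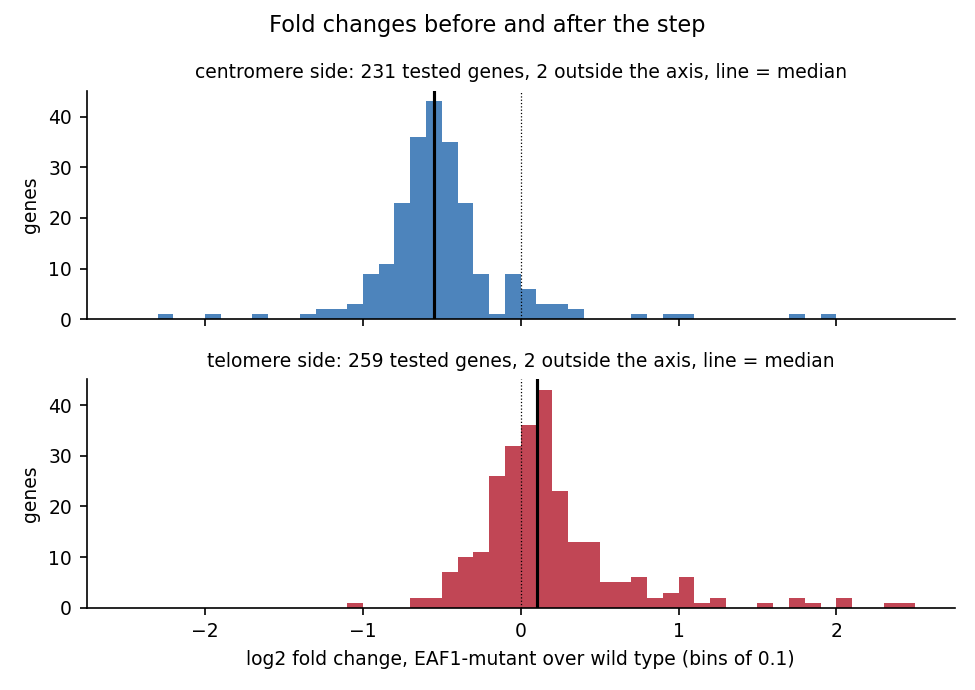
Number of tested genes (y axis) by log2 fold change, EAF1-mutant over wild type, in bins of 0.1 (x axis), before the step (upper, 231 genes) and after it (lower, 259 genes). Solid lines mark the medians, -0.55 and 0.10, and dotted lines mark 0; 2 genes of each stretch fall outside the axis.

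In windows of 5 Mb, counted from the start of the chromosome, 16 windows had at least 5 tested members, and 6 of them had a median below 0. Of the windows with a median, these were the 6 nearest the centromere, and each was below -0.5. The window from 20 to 25 Mb held 97 tested members with a median of -0.54, 49 of them lower and 1 higher. The windows from 30, 35, 45, 50 and 55 Mb had medians of -0.60, -0.52, -0.60, -0.58 and -0.59. From 65 Mb on, all 9 window medians of the tested members were above 0, from 0.04 in the window from 65 Mb to 0.31 in that from 105 Mb. The window from 60 to 65 Mb, with a median of 0.01 over 32 genes, contains the step. Its 9 genes before the step had a median of -0.62, with 9 below 0 and 6 lower, and its 23 genes after it a median of 0.18, with 6 below 0 and 7 higher. Windows with fewer than 5 tested members were given no median. Among them, the window from 40 Mb held 4 tested genes, 1 of them higher and 3 below 0 that did not pass the threshold. Among members without exon overlap, 8 of 13 windows had a median below 0. These were the same 6, that from 60 Mb (-0.05) and that from 100 Mb (-0.01).

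The same profile was seen in each mutant library. Before the step, the median difference from the wild-type mean was -0.51, -0.54 and -0.55 on the log2 CPM scale in the EAF1-mutant libraries, and after it 0.08, 0.10 and 0.10. Wild-type libraries set against the mean of the other 2 gave medians between -0.01 and 0.01 in both stretches. Over the 16 windows, no wild-type value went beyond -0.12 or 0.11, both in the window from 105 Mb with 13 tested genes. The plot of window medians by library shows the values side by side.

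**Figure D3:**
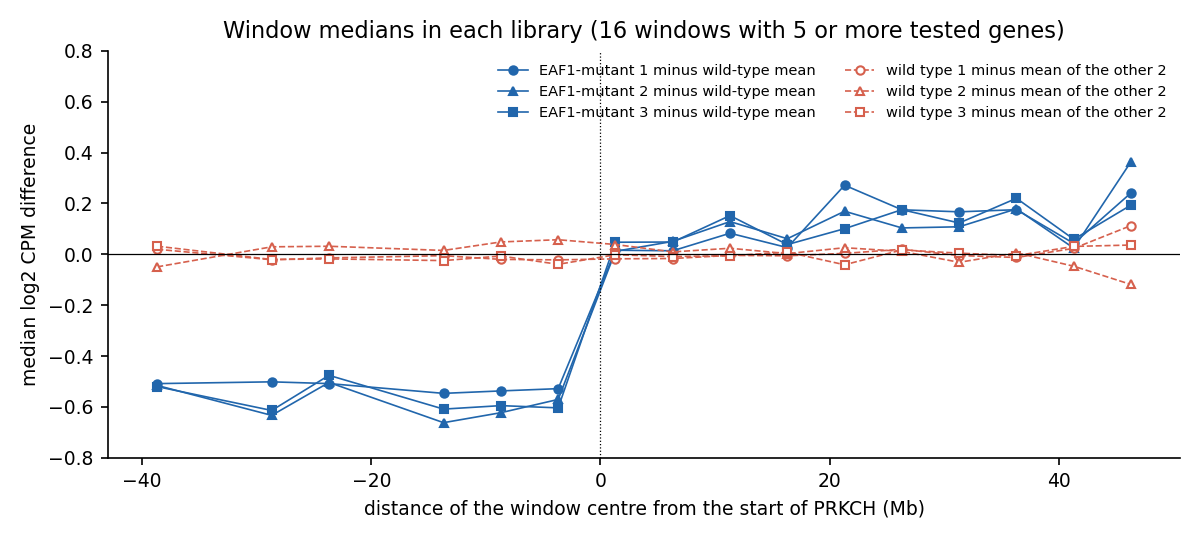
Median log2 CPM difference of the tested genes of each 5 Mb window (y axis) by the distance of the window centre from the start of PRKCH (x axis, Mb). Blue symbols, the 3 EAF1-mutant libraries against the wild-type mean, lie at about -0.5 to -0.7 in the 6 windows left of the dotted line, and open red symbols, each wild-type library against the other 2, near 0 throughout.

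Summed over all members of a stretch, RNA before the step amounted to 11360, 11570 and 11430 CPM in the wild-type libraries and to 7752, 7535 and 7533 CPM in the EAF1-mutant ones. After the step the sums were 12020, 12550 and 12500 CPM in wild type and 12600, 12570 and 12690 CPM in the mutant. The mutant sums lay far below the wild-type ones before the step and just above them after it. Per kilobase of exon, the median level of the tested members was 6.10 CPM in wild type and 4.27 CPM in the mutant before the step, and 3.56 and 3.93 CPM after it.

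The genes that flank the step were named after their values were seen. TRMT5, which methylates guanosine in transfer RNA, stood at 46.9, 48.8 and 45.2 CPM in wild type and at 29.5, 30.1 and 29.6 CPM in the mutant. Its neighbour SLC38A6, a member of the SLC38 family of amino acid transporters, stood at 11.2, 11.1 and 11.0 CPM in wild type and at 6.99, 7.55 and 7.24 CPM in the mutant. PRKCH, which encodes protein kinase C eta and is the next tested gene, went the other way, from 10.5, 11.4 and 10.6 CPM in wild type to 26.4, 26.6 and 26.1 CPM in the mutant. For none of the 3 genes did the groups overlap. The log2 fold changes were -0.66 (SE 0.0430, edgeR adjusted p = 7.58e-12) for TRMT5, -0.62 (SE 0.0655, 3.08e-08) for SLC38A6 and 1.28 (SE 0.0527, 1.95e-15) for PRKCH. TRMT5 and SLC38A6 overlap head to head by 56 bases, and reads within that overlap are hard to assign to either gene. HIF1A, the oxygen-regulated transcription factor that lies beyond PRKCH, stood at 107, 113 and 107 CPM in wild type and 122, 117 and 118 CPM in the mutant. Its log2 fold change of 0.13 did not pass the threshold. Of the last 20 tested genes before the step 18 were below 0, and of the first 20 after it 5 were.

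**Figure D4:**
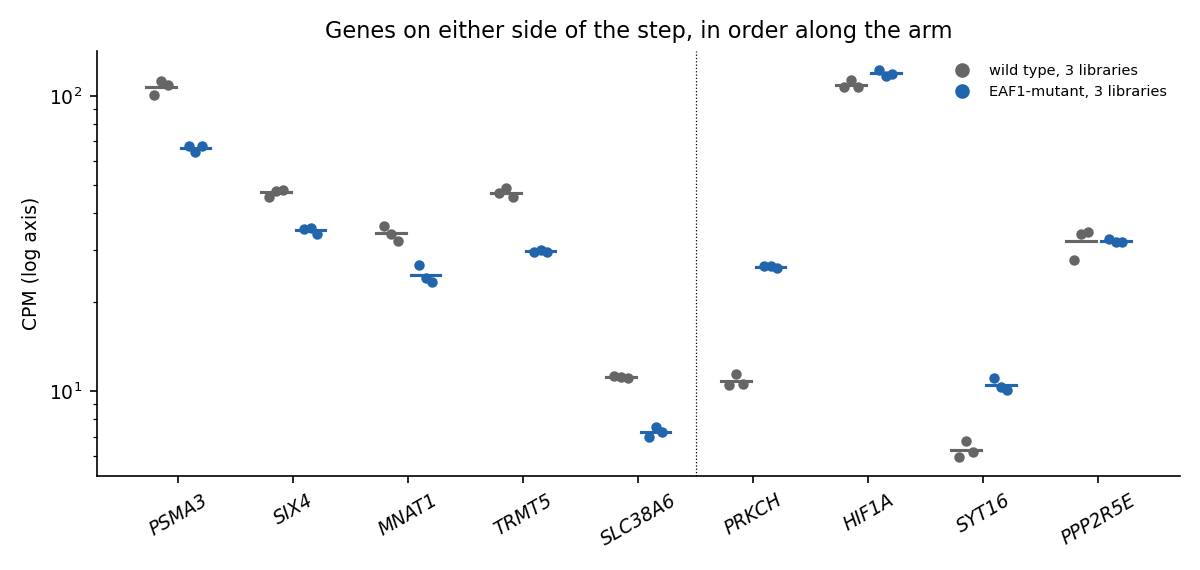
CPM on a log axis (y axis) of 9 genes in their order along the arm (x axis), 3 wild-type libraries in grey and 3 EAF1-mutant libraries in blue, with bars at the means. The dotted line marks the step: left of it the blue points lie below the grey ones in each gene, and right of it above them in PRKCH, HIF1A and SYT16, with overlap in PPP2R5E.

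The lowest members with non-overlapping groups and a mean of at least 5 CPM all lay before the step. PYGL, liver glycogen phosphorylase, stood at 274, 282 and 277 CPM in wild type and at 57.4, 54.6 and 57.7 CPM in the mutant. PCK2, the mitochondrial phosphoenolpyruvate carboxykinase, stood at 29.1, 27.1 and 30.7 CPM in wild type and at 7.72, 7.72 and 7.78 CPM in the mutant. The mutant libraries thus held 20.4% and 26.7% of the wild-type mean, much less than the 68.4% of the stretch median. The log2 fold changes were -2.29 (SE 0.0384, edgeR adjusted p = 4.67e-22) for PYGL and -1.90 (SE 0.0579, 9.19e-18) for PCK2. ARHGEF40 fell by 1.18. FERMT2, the integrin activator kindlin-2, fell by 1.08, SEC23A, of the COPII vesicle coat, by 1.05 (SE 0.0393) and AP4S1, the small subunit of the AP-4 adaptor, by 1.01. Apart from PCK2, these 6 genes share exon sequence with another annotated gene. In all, 14 members were lower past a log2 fold change of 1 in size, 13 of them before the step. The other was JDP2.

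The highest members by the same rule lay after the step, except DHRS2. FLRT2, a fibronectin leucine-rich transmembrane protein, stood at 2.49, 2.57 and 2.82 CPM in wild type and at 14.2, 14.6 and 13.9 CPM in the mutant, a log2 fold change of 2.43 (SE 0.0775, edgeR adjusted p = 2.10e-17). BCL11B, a zinc finger factor of T cells and neurons, stood at 2.62, 2.28 and 2.22 CPM in wild type and at 9.07, 7.73 and 8.85 CPM in the mutant, a log2 fold change of 1.85 (SE 0.0983). The groups did not overlap in either gene. STON2, an endocytic adaptor, rose by 1.05 and SAMD15 by 1.05, beside PRKCH. DHRS2, a short-chain dehydrogenase, rose by 1.76 (SE 0.0913) within the stretch of lower genes. The 41 higher members had a median level of 3.84 CPM and the 135 lower ones of 31.9 CPM, and 8 and 109 of them reached 10 CPM.

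Genes that moved against their stretch past the threshold are named here after their values were seen. Before the step, the 5 higher members were DHRS2, COCH, FOXA1, TTC6 and LRFN5. COCH, cochlin of the inner ear matrix, stood at 50.1, 48.2 and 45.3 CPM in wild type and at 82.7, 80.6 and 77.2 CPM in the mutant, a log2 fold change of 0.74 (SE 0.0436). FOXA1, a pioneer transcription factor, stood at 4.05, 4.29 and 4.41 CPM in wild type and at 7.84, 8.38 and 8.54 CPM in the mutant. Its divergent neighbour TTC6, whose exons overlap it, rose by 1.98. LRFN5, a synaptic adhesion protein, averaged 0.125 CPM in wild type and 1.38 CPM in the mutant. The groups did not overlap in any of these 5 genes, but they were chosen by the threshold, so this adds no support. All mutant libraries lay above all wild-type ones in 5245 of the 14924 protein-coding genes of the other autosomes and X. LRFN5, low in wild type, can have passed the filter through the mutant group. In all, 20 of the 231 members before the step were above 0, and 4 of them reached 10 CPM: TEP1, CDH24, COCH and ATG14. Except for COCH, these had log2 fold changes of 0.01 to 0.06 and did not pass the test.

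After the step, 91 of 259 members were below 0, 42 of them with an adjusted p under 0.01, and the 4 past the fold limit as well were JDP2, ACOT1, TDP1 and SERPINA10. JDP2, a repressor that dimerizes with JUN, stood at 5.46, 5.56 and 5.06 CPM in wild type and at 2.28, 2.72 and 2.68 CPM in the mutant. TDP1, a tyrosyl-DNA phosphodiesterase, stood at 47.3, 45.3 and 46.1 CPM in wild type and at 33.2, 31.9 and 32.4 CPM in the mutant. ACOT1, an acyl-CoA thioesterase with near-identical paralogs beside it, fell by 0.53, a value that the counting of shared reads may affect. The groups were separate in all of these, which were likewise chosen by the threshold. TDP1 fell short of the fold limit without EAF1-mutant replicate 2 (-0.50) and with a filter of 1 CPM. With library totals alone TDP1, ACOT1 and SERPINA10 were short of the fold limit. SERPINA10 averaged 0.978 and 0.642 CPM, and its call was lost with any library left out, with edgeR adjusted p from 0.0115 to 0.0417. The adjusted p for the log2 fold change of SERPINA10 was also over 0.01 with a replicate block (0.0129), without a filter on low counts (0.0110) and with DESeq2 (0.0696), and with a filter of 1 CPM the gene was not tested.

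Gene lists by function are set beside their stretch, where 131 of 231 tested members (56.7%) were lower before the step and 4 of 259 (1.54%) after it. Their division at the step is that of the arm and not particular to a list. With a filter of 1 CPM, 1 gene fewer was lower before the step in each of the lists of the proteasome, RNA processing, DNA repair, membrane traffic and mitochondria. Of 7 tested proteasome subunits and activators, 4 were lower and 3 did not pass the threshold, and with library totals alone 2 were lower. The 6 before the step (PSMA3, PSMA6, PSMB5, PSMC6, PSME1 and PSME2) ran from -0.68 to -0.41, with PSME2 short of the fold limit without EAF1-mutant replicate 1 or 2 (to -0.49), and PSMC1, an ATPase of the same particle that lies after it, was at 0.14. PSMA3 stood at 101, 112 and 109 CPM in wild type and at 67.7, 64.7 and 67.7 CPM in the mutant, with no overlap. PSMC1 stood at 141, 148 and 144 CPM in wild type and at 164, 154 and 158 CPM in the mutant, with the groups apart but short of the fold limit. Of 18 genes of RNA processing and modification, 10 were lower, all among the 11 before the step, and 8 did not pass the threshold. With library totals alone 3 were lower. Their median was -0.58 before the step and -0.07 after it. HNRNPC, a nuclear pre-mRNA binding protein, stood at 925, 952 and 942 CPM in wild type and at 647, 620 and 625 CPM in the mutant, a log2 fold change of -0.58 (SE 0.0344), which is -0.46 and short of the fold limit with library totals alone. DICER1 and RBM25, which lie after the step, were at 0.20 and -0.07 and did not pass the threshold. The plot of gene lists by stretch shows these values.

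**Figure D5:**
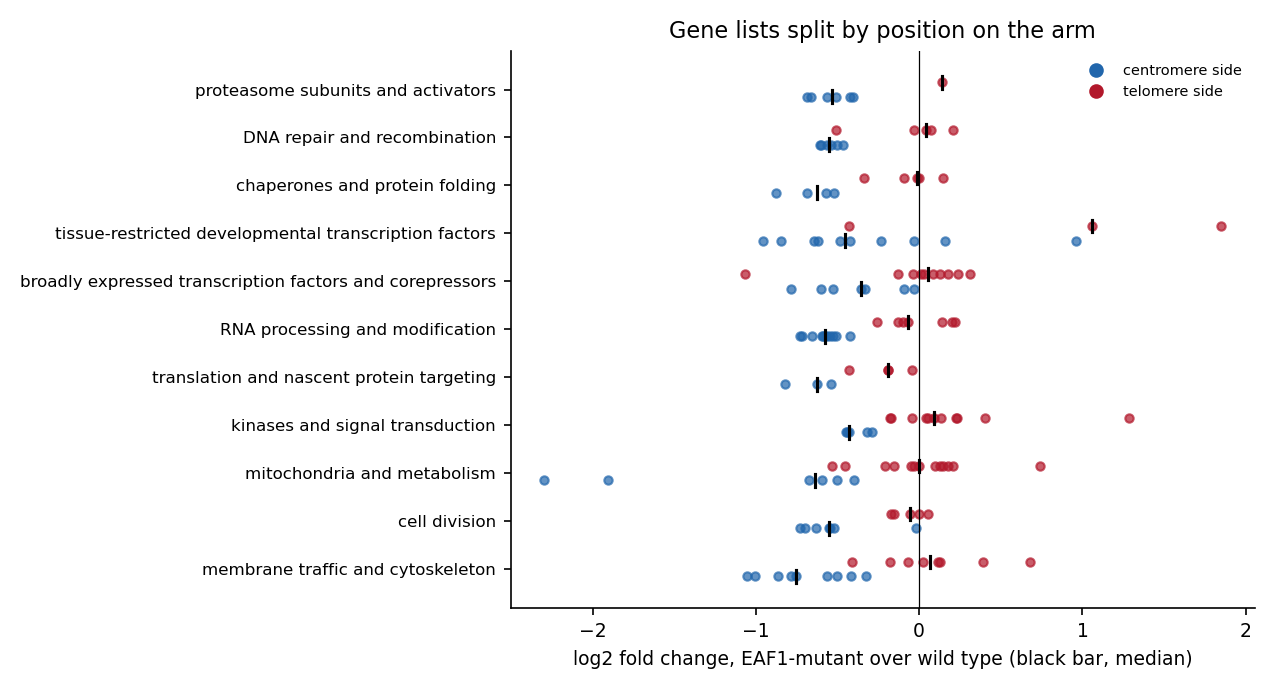
Log2 fold change, EAF1-mutant over wild type (x axis), of the tested genes of each list with at least 7 tested genes (y axis), blue before the step and red after it, with black bars at the medians. In every list the median before the step lies left of that after it.

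Of 11 DNA repair and recombination genes, 6 were lower and 5 did not pass the threshold, whereas with library totals alone all 11 were short of the fold limit, APEX1 at -0.49. All 6 before the step lay between -0.61 and -0.46. After it, MLH3, RAD51B, XRCC3 and EXD2 lay between -0.03 and 0.21, and TDP1 was the lower gene described above. APEX1, the major apurinic endonuclease, stood at 77.9, 108 and 113 CPM in wild type and at 60.9, 67.4 and 67.5 CPM in the mutant. The first wild-type library lay below the other 2 in this gene, but above all mutant ones. FANCM, a DNA translocase, passed at -0.50, but not without EAF1-mutant replicate 3 (-0.44), with a filter of 1 CPM (-0.49) or with library totals alone (-0.39), and REC8 was short of the fold limit without EAF1-mutant replicate 1 (-0.49). Of 12 cell division genes, 6 of the 7 before the step were lower (5 without EAF1-mutant replicate 2, 3 with library totals alone), among them DLGAP5 (-0.63), a spindle protein. The 5 after it lay between -0.17 and 0.05, with NEK9 at -0.06 and PPP2R5C at 0.05.

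All 4 chaperone and folding genes before the step were lower (3 without wild-type replicate 2 or EAF1-mutant replicate 2, 2 with library totals alone), among them ERO1A (-0.88), the oxidase of the endoplasmic reticulum, while the 5 after it did not pass the threshold. HSP90AA1, the inducible cytosolic HSP90, had the highest wild-type level per length of all tested members, 264 CPM per kilobase. It stood at 1109, 1495 and 1431 CPM in wild type and at 1286, 1352 and 1390 CPM in the mutant, with overlap of the groups. AHSA1, its co-chaperone, was at -0.34. The other members with the highest wild-type levels per length were CKB, brain creatine kinase, with 184 CPM per kilobase and a log2 fold change of 0.09, HNRNPC with 129 CPM per kilobase, and ERH with 92.7 CPM per kilobase and a log2 fold change of -0.05. Of these 4, HNRNPC alone lies before the step, and it alone passed the threshold, though not with library totals alone (-0.46).

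Among 17 genes of membrane traffic and the cytoskeleton, the 9 before the step had a median of -0.76 with 7 lower (5 with library totals alone), and the 8 after it a median of 0.07 with 1 higher, SPTB. KTN1, kinectin, was at -0.51 and passed the threshold, but not without EAF1-mutant replicate 3 (-0.48), with a filter of 1 CPM (-0.49) or with library totals alone (-0.39). SYNE2 and DYNC1H1, both after the step, were at 0.39 and 0.11, and SYNE2 passed the threshold with library totals alone (0.51). All 3 translation genes before the step (MRPL52, SRP54 and NEMF) were lower, SRP54 not with library totals alone, and the 4 after it did not pass the threshold, with EIF5 at -0.43, EIF2S1 at -0.19 and WARS1 at -0.19. Of 16 kinases and signalling genes, PRKCH alone passed the threshold, with 1 more higher under library totals alone. The 5 before the step lay between -0.45 and -0.29, and AKT1 (-0.18), MARK3 (0.05) and VRK1 (-0.17) lie after it. Of 19 tested genes of mitochondria and metabolism, 5 of 6 before the step were lower and 1 of 13 after it, ACOT1, with 1 higher, GALC. The 5 were 4 without wild-type replicate 2 or EAF1-mutant replicate 2 and 3 with library totals alone. MTHFD1, of folate metabolism, was at -0.16, but at -0.25 without wild-type replicate 1 and at -0.04 with library totals alone.

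Transcription factors were divided by how widely they are expressed. Of 13 tested tissue-restricted developmental factors, 10 lay before the step, with a median of -0.46, 4 lower and 1 higher. The lower ones were 2 without wild-type replicate 3 or EAF1-mutant replicate 2, and also 2 with DESeq2, a filter of 1 CPM or library totals alone. SIX4, a homeobox factor, stood at 45.4, 47.5 and 48.1 CPM in wild type and at 35.5, 35.5 and 34.1 CPM in the mutant. The groups did not overlap, but its log2 fold change of -0.43 (SE 0.0422) was short of the fold limit. After the step, ESRRB and BCL11B were higher and GSC, at -0.43, did not pass the test. Of 17 broadly expressed factors, 3 of 7 before the step were lower (2 without wild-type replicate 2), including the chromatin remodeller CHD8 (-0.60). With library totals alone 1 was, and CHD8 was short of the fold limit (-0.49). Of the 10 after it 1 was lower, JDP2, and YY1 was at 0.08.

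Several clusters of the arm gave little RNA. None of 27 olfactory receptor genes was tested, with at most 0.177 CPM in a library, nor were the cardiac myosins MYH6 and MYH7. Of 10 serpins 1 was tested (SERPINA10), and of 4 granule proteases 1 (CMA1), at 0.145 CPM in wild type and 0.301 CPM in the mutant with overlap of the groups. Of 13 ribonuclease A genes, RNASE4 and ANG were tested, at -0.70 and -0.69. These share a promoter and exons, so their reads could not be separated with certainty. RNASE4 passed the threshold, and ANG passed it without wild-type replicate 2 (-0.84) and without a filter on low counts (-0.70). DIO3, of the imprinted locus, was at 0.142, 0.0594 and 0.0561 CPM in wild type and at 0.302, 0.378 and 0.623 CPM in the mutant and was called higher from few counts, whereas RTL1 was not tested.

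The members with the highest levels in the lowest and highest windows were fixed by rule. In the window from 45 Mb they were NEMF, a factor of ribosome quality control, at -0.82, ARF6, a small GTPase, at -0.86 and PRPF39, of the U1 particle, at -0.59, all past the threshold, PRPF39 not with library totals alone (-0.47). In that from 30 Mb, ARHGAP5 (-0.50) and BAZ1A (-0.42) were short of the fold limit. ARHGAP5 passed it with DESeq2 (-0.51) or its size factors in edgeR (-0.50), without EAF1-mutant replicate 1 (-0.52) and without wild-type replicate 1 (-0.53) or 3 (-0.52). In the window from 105 Mb MTA1 was at 0.17, CDCA4 at -0.19 and BRF1, of the RNA polymerase III initiation factor, at 0.19. In that from 95 Mb VRK1, DICER1 and CCDC85C were at -0.17, 0.20 and 0.21. The first tested gene along the arm, TTC5, was at -0.66 and the last, TMEM121, at 0.47, which was past the threshold without wild-type replicate 1 (0.58) or without EAF1-mutant replicate 2 (0.51), and with library totals alone (0.59).

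Head-to-head genes start up to 1000 bases apart on opposite strands, and pairs whose starts do not overlap were taken first. In 15 such pairs of tested members before the step, both partners were below 0 in all 15, and in 7 both were lower past the threshold. In 19 pairs after it, both were below 0 in 1, both above 0 in 10 and on opposite sides in 8. Of all tested members, 91.3% were below 0 and 56.7% lower before the step, and 35.1% were below 0 after it. Most genes of a stretch thus lay on the same side of 0, so agreement of partners is not particular to pairs. The median difference between partners was 0.151 before the step and 0.218 after it. WDHD1 and SOCS4, whose shared 124 bases are printed above, were at -0.70 and -0.32. DDX24, an RNA helicase, and IFI27L1, with 98 bases between them, had the highest summed level and were at -0.13 and 0.06. The partners that differed most were COX16 and ADAM21, at -0.05 and 1.57, where ADAM21 averaged 0.413 CPM in wild type and 1.23 CPM in the mutant. Where the starts overlap by up to 1000 bases, a set added after seeing the data, both partners were below 0 in 9 of 11 pairs before the step, both above 0 in 1 (FOXA1 and TTC6) and on opposite sides in 1. In 10 such pairs after it, these numbers were 2, 1 and 7. Some genes stand in more than 1 pair.

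RefSeq promoters, 250 bases before to 50 after the start, were found for 504 of the 599 members and for 420 of the 490 tested. GGGCGG, on either strand, was present in 71.6% of the promoters of lower members, 52.6% of those of higher ones and 69.5% of those of members not called, and in 45.0% of all 35116 promoters of the table. CCAAT was present in 41.4%, 39.5% and 36.1%, and in 34.6% of all promoters. TATAAA was present in 5.17% of the promoters of 116 lower members and in 4.14% of those of 266 not called. In those of 38 higher ones it was present in 21.1%, which is 8 promoters, and in 11.5% of all. CpG dinucleotides per 100 bases had medians of 7.67, 9.33 and 8.33 in these groups, against 4.67 in all. Promoters of tested members held GGGCGG in 65.5% before the step and in 71.2% after it, and CCAAT in 38.1% and 37.6%. Of the 116 promoters of lower members, 113 lie before the step, so the calls are not independent of the stretch. Before the step, GGGCGG was present in 71.7% of these 113 and in 57.9% of 76 of members not called. After it, the share was 74.2% of 190 of members not called and 54.5% of 33 of higher ones. These differences were not tested. The median number of CpG per 100 bases was 7.33 before the step and 9.0 after it. The table also holds promoters of genes with little RNA, and in those of 84 untested members GGGCGG was present in 22.6% and TATAAA in 15.5%.

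Other genes of the chromosome followed the same division. Among long non-coding RNA genes, 95 tested before the step had a median of -0.48, with 80 below 0, and 113 after it a median of 0.13, with 42 below 0. Lower were 42.1% before the step and 2.65% after it, and higher 6.32% and 12.4%, against 9.36% and 11.0% of all tested genes. Where their exons overlap those of members, their reads may be partly those of the members, as the strand setting is not stated. Of the genes that the rule left out, SUPT16H, GEMIN2, RPS29 and RPL36AL lie before the step and were lower, at -0.73, -0.99, -0.85 and -0.82. After it, SNAPC1, MED6, RPS6KL1, RPS6KA5, PAPOLA and CCNK lay between 0.02 and 0.15, CPSF2 was at -0.19, and FOS was higher at 0.84.

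The same split was made on each other autosome and X for comparison, as a description. On chromosome 3 it lowered the summed deviation by 31.4%, with medians of -0.83 up to and including EPHA3 and 0.06 after it. On chromosome 20 it lowered it by 22.6%, with -0.56 and 0.07, and on chromosome 1 by 18.0%, with 0.26 and -0.33. The smallest value was 0.217%, on chromosome 17. Among 535 windows of 5 Mb on the other chromosomes, 43 had a median at or below -0.5, and 17 of these were on chromosome 3. EAF1 itself lies before EPHA3 on chromosome 3. A level like that of chromosome 14 before its step was therefore seen elsewhere too.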

How the data were processed

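The deposited RNA-seq table holds raw counts per gene for 3 wild-type and 3 EAF1-mutant libraries. As the authors describe, total RNA was depleted of ribosomal RNA, prepared with a stranded kit, mapped to GRCh38 with HISAT2 and counted on Ensembl genes with Rsubread. How strand and multi-mapped reads were handled is not stated. Genes were placed with GENCODE v44, which lacked 641 of the 58395 identifiers (2.81% of counts). All genes were fitted together in edgeR 4.0.16 under R 4.3.3 (TMM, filterByExpr, quasi-likelihood test, Benjamini-Hochberg adjustment). Called genes had an adjusted p under 0.01 with a log2 change beyond 0.5 either way. CPM used TMM-scaled totals, and log2 CPM a prior count of 2. The members and gene lists were chosen with earlier results of these data known. Genes were named by rule: the 6 lowest and 6 highest called members with separate groups and a mean of at least 5 CPM; the 4 with the highest wild-type level per kilobase; the 3 with the highest CPM in each of the 2 lowest and 2 highest windows and in each list; the first and last tested member; and 2 head-to-head pairs. Further genes were named after their values were seen. Alternatives were DESeq2 1.42.0, its size factors, library totals alone, other filters, thresholds and windows, a replicate block and leaving out each library. The ELL ChIP-seq table holds no gene of chromosome 14 and was not used, nor were the PRO-seq and other data of the series. Tests were checked on simulated data.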

Additional observations from a re-analysis of the deposited data

How the results depend on the processing

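The position of the step lay after SLC38A6 in 11 of the 13 settings that can move it, since a change of threshold or of scaling alone cannot. In the other settings fewer genes were tested, SLC38A6 was not among them, and the step fell at the same place. It lay after SIX4, the last of the 78 members without exon overlap before the step. Among members with at least 10 CPM it lay after TRMT5, the last of the 160 before the step. The alternatives for the step, for both stretches and for the list counts were chosen after seeing the data. The median log2 fold change of tested chromosome 14 members, -0.16, was -0.14 with DESeq2, -0.0411 with library totals alone, -0.13 without a filter on low counts, -0.12 without exon overlap, -0.23 at 10 CPM or more, and between -0.18 and -0.15 with 1 library left out. Library totals alone gave 82 lower members, and members without exon overlap 49 lower and 20 higher, as fewer genes were counted. An adjusted p under 0.05 with no fold limit gave 246 lower and 115 higher members (7170 for all tested genes lower past the threshold and 7250 for all tested genes higher past the threshold), and a log2 fold change over 1 gave 14 and 22 (698 and 1452). The median log2 fold change of the stretch up to SLC38A6, -0.55, was -0.43 with library totals alone, -0.53 with a filter of 1 CPM and -0.57 to -0.54 with 1 library left out. The median log2 fold change of the stretch from PRKCH, 0.10, was 0.22 with library totals alone, 0.0671 without exon overlap, 0.0656 at 10 CPM or more and 0.0847 to 0.105 with 1 library left out. The windows below 0 numbered 7 without wild-type replicate 1, 8 of 13 without exon overlap, 9 of 17 when shifted by 2.5 Mb and 4 of 9 with 10 Mb windows, against 6 of 16; the other settings gave 6. With a replicate block, the median of the members was -0.15 and 134 were lower; libraries of the same number did not pair, with correlations of -0.00537, -0.0166 and 0.00974. Of 788 values of the 66 named genes, 746 kept their direction and side of the threshold, 20 lost the call and 11 gained it. The other 11 changed sign, none of them called. With library totals alone the log2 fold change of HSP90AA1 was 0.11, the log2 fold change of ERH 0.0653, the log2 fold change of RBM25 0.0469, the log2 fold change of NEK9 0.0589 and the log2 fold change of COX16 0.0636. HSP90AA1 was also above 0 with a filter of 1 CPM (0.0139) and a replicate block (0.00899). With 1 library left out it lay between -0.14 and 0.0706, and the log2 fold change of IFI27L1 between -0.0139 and 0.13. Unless fewer genes or libraries account for a change by construction, the cause was not tested. Fewer than 5 tested genes gave no median in 3 windows, and 109 members had too few counts to be tested.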
